A study of Mus musculus with 12 samples.

Results

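Broad regions of histone H4 acetylation (H4ac) that were found in every library of the series are described here. Overlapping or adjoining peaks from the 6 H4ac lists were fused into union regions, and an overlap of 1 bp sufficed for a library to count as listing a region. Regions listed by all 6 libraries with a union width of at least 1000 bp were kept. There were 1502 such regions among 31891 union regions, and among 3107 regions that all 6 libraries listed. The members were thus chosen by measured values, namely listing in all 6 libraries and width. Widths and covered lengths over them are therefore descriptions, and none was tested.

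The cells were C2C12, an established mouse myoblast line, transduced with lentivirus. One group carried an MLX-DN construct and the other an MLX-WT construct, and each was represented by 3 H4ac libraries. The labels do not spell out DN, and a second label calls the same samples "MLX down". The growth protocol names empty vector and non-targeting shRNA controls, but no H4ac library of either kind was analysed here, so MLX-WT cells, which also carry an MLX construct, are the only reference. Promoters of the constructs, transduced clones or pools, glucose level and days in culture are not given in the labels, although the peak names carry the tag "with glucose". Nothing in the labels says that replicates came from separate cultures, so the SDs below may be technical. The myoblast label could not be checked against marker genes, because peak lists carry no gene names and no annotation of the mm9 build was used.

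Acetyl groups on the tail lysines of histone H4 neutralise positive charge and loosen the contact of the tail with DNA and neighbouring nucleosomes. H4ac is found at active promoters and enhancers. Acetylation that runs over many neighbouring nucleosomes, in broad or clustered stretches, is a known feature of strongly active promoters and of enhancer clusters near genes that define a cell type. MLX is a basic helix-loop-helix leucine zipper factor and the obligate partner of MondoA and ChREBP, which respond to glucose. It also dimerises with MXD repressors.

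The lists differed in length before any region was chosen. For MLX-DN the numbers of peaks, here and below in the order of replicates 1, 2 and 3, were 15201, 24811 and 16898. MLX-WT had 5385, 13652 and 9422. The depth recovered from the peaks was 3.299 to 3.90 ChIP reads per 250 bp window, so depth spanned a far smaller range than list length. MLX-WT replicate 1 stands apart with the shortest list, and the number of regions, the covered length, the shares of regions with separate groups, the fold and the clustering are also given without it. The width classes, the base pairs of one group alone, the length of the core and the profile around summits were not recomputed without it. The smallest −log10 p of a listed peak was 3.74, 3.51 and 3.69 in MLX-DN against 4.22, 3.79 and 3.97 in MLX-WT. Every MLX-WT list thus ended at a stricter p-value than every MLX-DN list. A longer list has more and longer peaks in it. The parts of list length and of this p-value limit in the results below were not tested.

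The broad regions measured 1000 to 4477 bp, with a median of 1363.5 bp and quartiles of 1155 and 1687.75 bp. Together they took up 2.25 Mb. Of the 1502 regions, 562 were at least 1500 bp wide, 181 at least 2000 bp and 28 at least 3000 bp. Width had no gap at the limit that defined the members: the regions just above it measured 1000, 1001 and 1001 bp, and those just below it 999, 998 and 998 bp. The 1605 shared regions under 1000 bp, called compact below, had a median width of 728 bp.

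Most regions reached 1000 bp in at least 1 library, and few did so in all of them. In 105 broad regions every single library covered at least 1000 bp, and in 171 no single library did. The peaks of the 3 MLX-DN libraries together covered 1000 bp in 1392 regions, and those of the 3 MLX-WT libraries in 895. A total of 830 regions met the limit in both groups, and 45 in neither. MLX-DN replicate 2, which has the longest list, held 992 of the regions with a single peak of at least 1000 bp. The rule therefore admits more regions through MLX-DN than through MLX-WT, and group values are given below also for the 895 regions wide in MLX-WT alone.

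On average the H4ac peaks covered more of the broad regions in MLX-DN than in MLX-WT libraries, with overlap between the groups. The median covered length in MLX-DN was 929, 1203 and 1002 bp. MLX-WT gave 540, 941.5 and 743.5 bp. MLX-WT replicate 2 thus lay above MLX-DN replicate 1. The group means were 1045 ± 142 bp in MLX-DN and 742 ± 201 bp in MLX-WT (SD, n = 3), a ratio of 1.41. The order of the 6 values is almost the order of the list lengths, with the exception that MLX-WT replicate 2 with fewer peaks covered more than MLX-DN replicate 1.

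**Figure D1:**
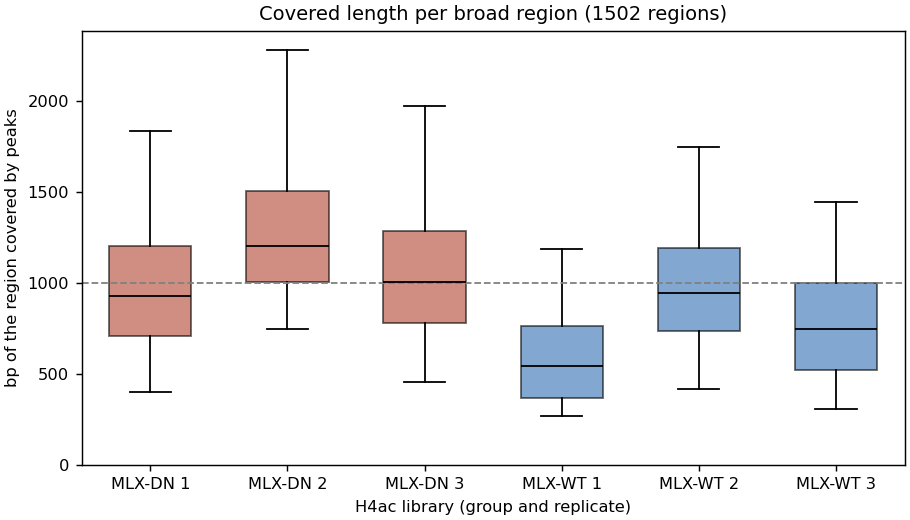
Base pairs of each broad region covered by the peaks of each H4ac library (vertical axis, bp) over 1502 regions. Boxes span the quartiles, the line is the median, whiskers run from the 5th to the 95th percentile, and the dashed line is the 1000 bp limit. Medians run from 540 bp in MLX-WT replicate 1 to 1203 bp in MLX-DN replicate 2, and the boxes of MLX-DN replicate 1 and MLX-WT replicate 2 cover nearly the same range.

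Expressed as a share of the union width, the median region was covered to 68.7%, 91.1% and 74.8% in MLX-DN. The corresponding shares were 39.4%, 70.0% and 52.9% in MLX-WT. Summed over all 1502 regions, peaks covered 1.502, 1.97 and 1.62 Mb in MLX-DN against 0.912, 1.49 and 1.19 Mb in MLX-WT. These sums did not overlap between the groups, although MLX-WT replicate 2 and MLX-DN replicate 1 were nearly equal. Over all shared regions the sums did overlap, at 2.360 Mb in MLX-DN replicate 1 and 2.363 Mb in MLX-WT replicate 2. Those of compact regions overlapped too, at 0.858 and 0.877 Mb in the same libraries. Compact regions showed the same direction with a smaller ratio of 1.21, at 554 ± 63.8 bp in MLX-DN and 458 ± 76.0 bp in MLX-WT (SD, n = 3).

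The excess in MLX-DN was also present with lists of equal length. When every list was reduced to its 5385 strongest peaks, 780 broad regions met the same rule. Peaks kept the borders of the full lists, and MLX-WT replicate 1 kept its weak peaks while longer lists lost theirs. The setting therefore does not test the part of list length. Their median covered length was 982.5, 1224.5 and 1040.5 bp in MLX-DN. In MLX-WT it was 650.5, 975.5 and 826 bp, so every MLX-DN library lay above every MLX-WT library, by 7 bp at the closest. The ratio of the group means was then 1.32. In the 895 regions at least 1000 bp wide in MLX-WT alone, the ratio was 1.31, with 1184 ± 148.8 bp in MLX-DN and 903 ± 240 bp in MLX-WT (SD, n = 3), and the groups overlapped. Without MLX-WT replicate 1, 2043 regions met the rule and the ratio was also 1.31.

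Region by region, 437 of the 1502 broad regions (29.1%, exact 95% binomial interval 26.8% to 31.5%) were covered over more base pairs in every MLX-DN library than in every MLX-WT library. The same held for 22.9% of all 3107 shared regions and for 17.1% of the compact ones. The reverse order was found in 5 broad regions (0.333%), against 0.676% of all shared regions. Among the 895 regions wide in MLX-WT alone the share with MLX-DN higher was 21.6% (193 regions, 18.9% to 24.4%), which is near the share over all shared regions. Among the other 607 broad regions, which the MLX-WT libraries covered over less than 1000 bp, it was 40.2% (244 regions, 36.3% to 44.2%). This split uses MLX-WT cover, which also enters the count, so low MLX-WT cover favours MLX-DN by construction and nothing is read from the contrast.

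**Figure D2:**
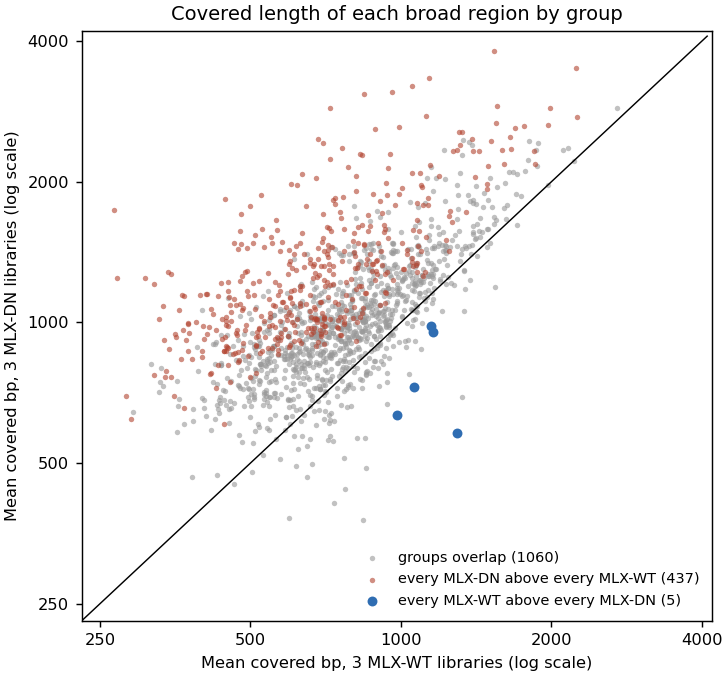
Mean covered base pairs of each broad region in the 3 MLX-DN libraries (vertical axis, log scale) against the 3 MLX-WT libraries (horizontal axis, log scale), with the line of equal cover. Points are regions, in red the 437 with every MLX-DN library above every MLX-WT library, in blue the 5 with the reverse order; most points lie above the line.

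These shares depend on which libraries are present. Separation of the groups is easier to reach with 2 libraries in a group, so these shares can rise by construction when a library is left out. With a library left out they were computed for broad regions only, so they have no share over all shared regions beside them. Nothing particular to broad regions is read from them. Leaving out MLX-WT replicate 2 gave 57.1% and leaving out MLX-DN replicate 1 gave 44.8%, these being the libraries whose values met in the middle. Leaving out MLX-WT replicate 1 gave 32.9%. For the reverse order, the share became 2.01% when MLX-WT replicate 1 was dropped and 1.39% when MLX-DN replicate 2 was dropped. Dropping MLX-DN replicate 3 gave 0.556%, and dropping MLX-WT replicate 3 gave 0.563%.

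The difference between the groups was larger in wider regions. In the narrowest of 5 width classes, with 562 regions, peaks covered 874 ± 109 bp in MLX-DN and 630.5 ± 164 bp in MLX-WT (SD of library medians, n = 3), a ratio of 1.39. In the 153 regions of at least 2000 but under 3000 bp the values were 1833 ± 234 and 1127 ± 354 bp, a ratio of 1.63. In the 28 regions of at least 3000 bp they were 2655 ± 351 and 1391 ± 475 bp, a ratio of 1.91. The share of regions with every MLX-DN library higher was 23.7% in the first of these classes, 46.4% in the second and 60.7% in the third. Width was part of the rule and was measured on the same peaks, so the trend is a description.

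**Figure D3:**
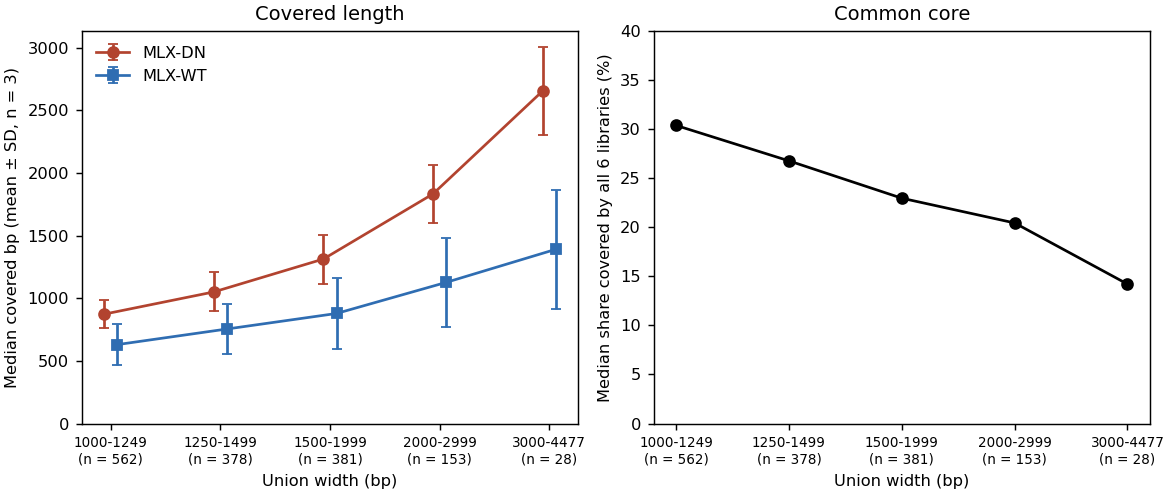
Covered length (left, bp; mean and SD of the library medians, n = 3) and the median share of the region covered by all 6 libraries (right, %) in 5 classes of union width. MLX-DN rises from 874 to 2655 bp and MLX-WT from 630.5 to 1391 bp, while the common share falls from 30.4% to 14.2%.

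The MLX-DN excess was largest on chromosomes where MLX-DN had the higher control background, and similar in the other classes of chromosomes. Background beneath the peaks, relative to the genome-wide level of each library, was higher in every MLX-DN than in every MLX-WT library on chromosomes 1, 3, 4, 5, 8, 9 and 12. On these 7 chromosomes 201 of 499 broad regions (40.3%, 35.9% to 44.7%) had every MLX-DN library above every MLX-WT library, beside 31.3% of the shared regions there. On the 5 chromosomes where the background of the groups overlapped (2, 7, 13, 16 and 17) the share was 23.1% (94 of 407, 19.1% to 27.5%), beside 21.0% of the shared regions. On the 8 where MLX-WT had the higher background it was 23.8% (142 of 596, 20.5% to 27.5%), beside 17.4%. The ratio of covered length was 1.52, 1.37 and 1.36 in the 3 classes, so an excess in MLX-DN was measured in each of them. The part of the background in these counts was not tested.

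A core covered by all 6 libraries was much smaller than the region around it. It was present in 1378 of the 1502 broad regions (91.7%, 90.2% to 93.1%), with a median of 362.5 bp over all members, or 26.6% of the width. The share with a core was 94.9% of all 3107 shared regions and 97.9% of compact ones. In 124 broad regions no base was covered by all 6 libraries. Compact regions had a median core of 289 bp, 43.4% of their width. The sets were divided by union width, so a smaller core share in the wider set follows in part from the rule.

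More than 1 core was counted in 240 broad regions (16.0%), up to 4 in a single region, against 18 compact regions (1.12%). The widest gap between neighbouring cores of a region had a median of 178.5 bp. At the other end, 217 regions had a core of at least 50% of their width, and in 56 the core itself was at least 1000 bp.

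Outside the core, base pairs covered by one group alone were mostly those of MLX-DN. Of the 2.25 Mb, 72.3% was covered in both groups, 24.0% in MLX-DN alone (0.540 Mb) and 3.72% in MLX-WT alone (0.0838 Mb). Over all shared regions the shares were close to these, at 74.9%, 21.2% and 3.92%. Stretches that every MLX-DN list covered and no MLX-WT list reached added up to 96496 bp and were present in 670 regions (44.6%), beside 34.5% of all shared regions. In 116 of the 670 they came to at least 250 bp, which is 7.72% of the broad regions beside 4.06% of all shared regions. Stretches of the reverse kind came to 1766 bp in 37 regions (2.46%, beside 2.57% of all shared regions), none of which held 250 bp. In compact regions these stretches came to 19806 and 1165 bp.

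In most broad regions the MLX-DN peaks together reached past the MLX-WT peaks at both ends. Base pairs of MLX-DN alone that lay between MLX-WT peaks do not enter these values. The MLX-DN union reached beyond the MLX-WT union at both ends in 865 regions (57.6%), and the MLX-WT union did so in 97. Over all 3107 shared regions the MLX-DN union did so in 1630 (52.5%) and the MLX-WT union in 261. Each group reached farther at one end in 530 regions, and 10 had a common edge. The median extension of MLX-DN over MLX-WT was 75.5 bp at the end with lower coordinates and 83 bp at the other.

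Shorter lists were largely contained in longer ones. Of the base pairs that MLX-WT replicate 1 covered in the broad regions, 96.5% were also covered by MLX-DN replicate 2, 89.4% by MLX-DN replicate 1 and 91.6% by MLX-DN replicate 3. Within its own group, 90.2% were covered by MLX-WT replicate 2 and 80.8% by MLX-WT replicate 3. In the other direction MLX-WT replicate 1 covered 44.7% of what MLX-DN replicate 2 covered. The Jaccard index of a pair of libraries (base pairs covered by both, divided by base pairs covered by either) was 0.687 ± 0.0157 over the 3 pairs within MLX-DN. It was 0.557 ± 0.0471 over the 3 pairs within MLX-WT and 0.567 ± 0.0765 over the 9 pairs between the groups (SD over pairs, which share libraries). The MLX-WT pair without replicate 1 had an index of 0.611, above the 0.522 and 0.539 of the pairs with it.

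The cover around the summits shows the same arrangement. Each peak row carries 1 summit, the position of its highest pileup, and every region was centred on the median of the strongest summits of the 6 libraries. At this point 95.7%, 98.8% and 97.4% of the regions were covered in MLX-DN, against 89.3%, 96.2% and 92.4% in MLX-WT. The libraries drew apart with distance. At 500 bp to either side the mean share was 41.2%, 59.8% and 44.6% in MLX-DN against 16.3%, 40.2% and 28.6% in MLX-WT, with MLX-WT replicate 2 just under MLX-DN replicate 1. The stretch over which at least 50% of the regions were covered measured 800, 1175 and 875 bp in MLX-DN against 475, 800 and 600 bp in MLX-WT.

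**Figure D4:**
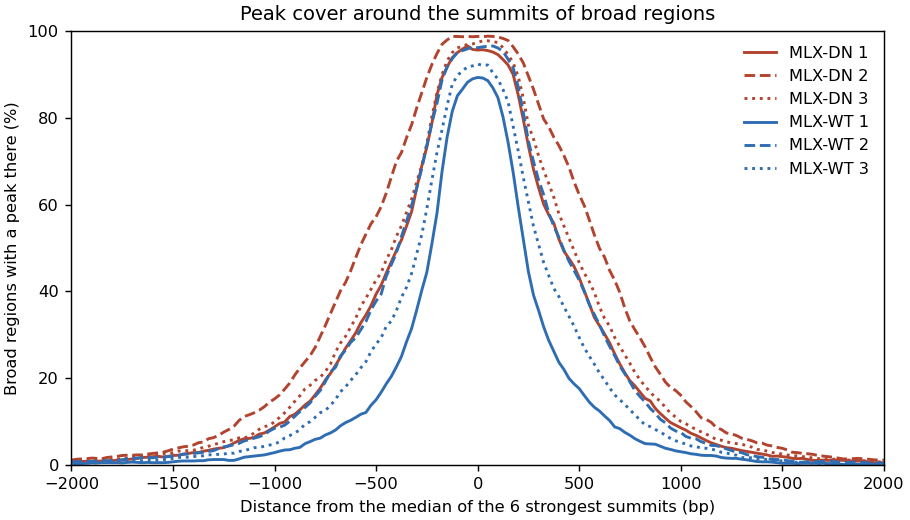
Share of the 1502 broad regions covered by a peak (vertical axis, %) at each distance from the median of the 6 strongest summits (horizontal axis, bp), 1 line for each library. All lines exceed 89% at the centre, and at 500 bp they range from 16.3% in MLX-WT replicate 1 to 59.8% in MLX-DN replicate 2, with MLX-DN replicate 1 and MLX-WT replicate 2 nearly on top of each other.

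The strongest summit sat at different places in different libraries. The distance between the outermost of the 6 strongest summits had a median of 307.5 bp in broad regions (quartiles 140 and 590 bp) and 133 bp in compact ones. All 6 lay within 100 bp in 228 broad regions (15.2%), while in 498 (33.2%) they spread over more than 500 bp and in 112 over more than 1000 bp. The spread was 124 bp within MLX-DN and 160 bp within MLX-WT at the median. The median summits of the 2 groups lay 54 bp apart at the median. In compact regions the corresponding values were 79, 88 and 33 bp.

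Most broad regions were a single peak in any one library. The mean number of peaks per region was 1.32, 1.23 and 1.32 in MLX-DN against 1.19, 1.2996 and 1.29 in MLX-WT. The groups overlapped at 1.29 ± 0.0498 and 1.26 ± 0.0633 (SD, n = 3). The share of regions held as 1 peak ran from 71.4% in MLX-DN replicate 3 to 82.9% in MLX-WT replicate 1. The libraries with the longest and the shortest list both had the fewest peaks per region. In the median region the first covered 91.1% of the width with them and the second 39.4%.

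A single peak in all 6 libraries was found for 526 regions (35.0%), and more than 1 peak in all 6 for 13. More peaks in every MLX-DN than in every MLX-WT library were counted in 17 broad regions (1.13%), beside 0.579% of all shared regions. The reverse was counted in 10 (0.666%), beside 0.322%. Compact regions, held as 1 peak in over 98% of cases, leave little room for such a difference, so nothing is read from the higher shares.

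Peaks of the same library inside a region were separated by short gaps. The median gap was 175.5, 123 and 165 bp in MLX-DN against 218.5, 200.5 and 213 bp in MLX-WT, so gaps were shorter in every MLX-DN library. The shortest gap was 51 bp in each list. Neighbouring summits were 650.5, 661 and 654 bp apart in MLX-DN against 636.5, 690 and 654 bp in MLX-WT, and here the groups overlapped. Gaps that a library bridged with 1 peak are not counted.

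Fold, the authors' ratio of ChIP pileup to background at a peak's summit, was moderate in broad regions. The highest fold per region had a median of 4.69, 5.71 and 4.55 in MLX-DN against 3.91, 5.07 and 4.29 in MLX-WT. The groups overlapped at 4.98 ± 0.636 and 4.42 ± 0.594 (SD, n = 3). This difference of 0.560 was 0.22 when MLX-DN replicate 2 was dropped and 0.297 when MLX-WT replicate 1 was dropped. In compact regions the group means were 4.48 ± 0.622 and 4.26 ± 0.570. The highest fold of any broad region was 20.03, in MLX-WT replicate 2.

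At the strongest summit of the median region, unscaled ChIP reads numbered 51, 58 and 56 in MLX-DN, against 40, 46 and 37 in MLX-WT. The background there was 9.75, 8.0 and 11.0 reads per window in MLX-DN against 8.75, 7.75 and 7.88 in MLX-WT. The unscaled reads thus did not overlap between the groups while the folds did. Background was highest in MLX-DN replicates 3 and 1. The scale, a factor applied to ChIP reads in the fold, was lowest for MLX-DN replicate 2 (0.848) and highest for MLX-WT replicate 3 (1.0). Depth had the opposite order in these libraries, at 3.90 against 3.299 reads per window. The reads given here carry no correction for scale or depth, so dividing them by the background does not return the folds. The parts of background, scale and depth were not tested. In compact regions the reads were 48, 54 and 53 in MLX-DN against 40, 45 and 37 in MLX-WT, so these too lay higher in every MLX-DN library.

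Fold and width were only weakly related. Across the 1502 regions, Spearman's rho between the highest fold of a library and the union width ranged from 0.0285 in MLX-WT replicate 2 to 0.158 in MLX-DN replicate 3. With the base pairs the same library covered it ranged from 0.238 in MLX-DN replicate 2 to 0.414 in MLX-WT replicate 1. These are descriptions over regions that share libraries, and fold and cover come from the same reads. Covered length in one library against the mean of the other 5 gave 0.462 in MLX-WT replicate 1 to 0.672 in MLX-DN replicate 1.

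The strongest peaks of each list lay mostly in regions that all 6 libraries shared, broad or compact. Of the 100 peaks with the highest significance, 66, 64 and 63 lay in broad regions in MLX-DN against 65, 64 and 65 in MLX-WT. Of the strongest 1000 peaks the share was 47.0% to 49.2% over the 6 libraries. All shared regions together held 97, 95 and 95 of the first 100 in MLX-DN against 100, 100 and 99 in MLX-WT, and 81.2% to 90.8% of the first 1000. The shares in broad regions hardly varied, although broad regions took up 7.46% of all peaks in MLX-DN replicate 2 and 33.1% in MLX-WT replicate 1. Listing by all 6 libraries favours strong peaks, so this is in part what the rule selects.

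Long peaks behaved differently. Single peaks of at least 1000 bp numbered 701, 1883 and 922 in the MLX-DN lists against 90, 583 and 252 in the MLX-WT lists. Broad regions held 67.8%, 53.2% and 62.7% of them in MLX-DN. In MLX-WT they held 98.9%, 80.8% and 91.3%. A long peak of MLX-WT was therefore mostly in a region that all 6 libraries listed, and the MLX-DN lists had more of them outside. A peak of at least 1000 bp meets the width limit by itself, so these shares depend on listing by all 6 libraries. The short MLX-WT lists limit that listing most, so the higher MLX-WT shares follow in part from the rule.

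The widest region lay on chromosome 8 from 72459050 to 72463526 (mm9, as all coordinates here, counted from 1) and measured 4477 bp. Peaks covered 3104, 4434 and 3886 bp of it in MLX-DN against 1181, 2211 and 1222 bp in MLX-WT. Every MLX-DN library was above every MLX-WT library. MLX-DN replicate 2 listed it as 1 peak, whereas MLX-DN replicate 1 and MLX-WT replicate 2 listed 4 peaks each. The core of 745 bp was split into 3 parts.

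The second widest, on chromosome 6 from 145955596 to 145959862, measured 4267 bp and had the highest mean number of peaks per library. It held 7, 2 and 5 peaks in MLX-DN against 4, 2 and 3 in MLX-WT. Cover was 3263, 3799 and 3432 bp in MLX-DN against 1698, 2941 and 2072 bp in MLX-WT, without overlap. Its strongest summits were spread over 3544 bp, most of its width.

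Of the 10 widest regions, the groups overlapped in covered length in 1, on chromosome 2 from 27656301 to 27660230 (3930 bp). There MLX-DN covered 1424, 3524 and 2347 bp and MLX-WT 652, 2409 and 1053 bp, and MLX-WT replicate 2 lay above MLX-DN replicates 1 and 3. The region on chromosome 15 from 102999126 to 103003024 (3899 bp) was covered over 2532, 3704 and 3790 bp in MLX-DN and over 380, 1822 and 1216 bp in MLX-WT. On chromosome 2 from 155102091 to 155105977 (3887 bp) the values were 2589, 3668 and 3099 bp against 803, 856 and 1226 bp, a ratio of the group means of 3.24. Of the remaining regions of this set, one lay at 59269205 to 59273090 of chromosome 4 and one at 114175426 to 114178938 of chromosome 12. Chromosome 6 held one at 91566179 to 91569684, chromosome 3 one at 144303362 to 144306765, and chromosome 5 one at 35988439 to 35991796. Their group ratios ran from 1.34 on chromosome 12 to 3.99 on chromosome 3. The regions on chromosomes 6 and 5 had no base covered by all 6 libraries. Width and MLX-DN cover are not independent, as stated above.

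**Figure D5:**
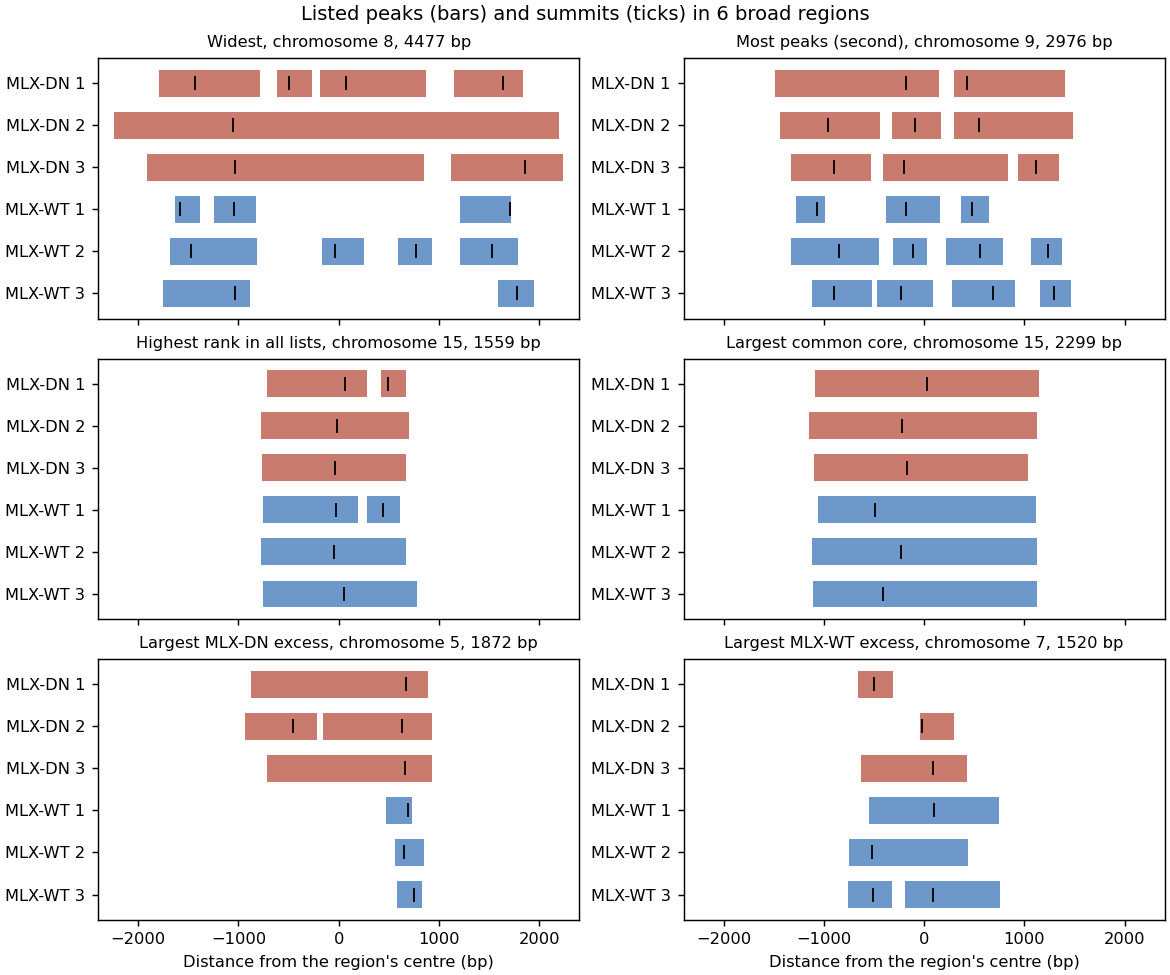
Peaks (bars) and summits (ticks) of the 6 libraries in 6 broad regions, each plotted by distance from the region's centre (horizontal axis, bp), with MLX-DN in red and MLX-WT in blue. In the region of 4477 bp MLX-DN replicate 2 has 1 peak where others have up to 4, in the region of 2299 bp each list has 1 peak of 2131 to 2280 bp, and in the region of 1872 bp the MLX-WT peaks cover a small part, as do those of MLX-DN replicates 1 and 2 in the region of 1520 bp.

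The regions ranking highest in all lists were neither the widest nor the most unequal. Ranked by the lowest within-list percentile of −log10 q, the first was on chromosome 15 from 78857824 to 78859382 (1559 bp), where this percentile was 99.8. It was covered over 1247, 1483 and 1435 bp in MLX-DN against 1271, 1449 and 1536 bp in MLX-WT, so the groups overlapped. A region on chromosome 17 from 34256547 to 34259758 had the fourth rank and was 3212 bp wide. Its cover of 2915, 2962 and 2766 bp in MLX-DN against 2359, 3126 and 2640 bp in MLX-WT overlapped too, and its core of 2333 bp made up 72.6% of the width. The other members of this set were at 58502555 to 58504878 of chromosome 13, at 36722343 to 36724523 of chromosome 15 and at 65739836 to 65741792 of chromosome 18. Of all 5, the one on chromosome 18 had every MLX-DN library higher, at a ratio of 1.28.

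The largest common core by share of width was on chromosome 15 from 85500196 to 85502494 (2299 bp). All 6 libraries listed it as 1 peak, of 2243, 2280 and 2131 bp in MLX-DN against 2176, 2244 and 2240 bp in MLX-WT. The core of 2090 bp was 90.9% of the width, and the group means of 2218 ± 77.6 and 2220 ± 38.2 bp (SD, n = 3) differed by less than the spread. The next 4, on chromosomes 4, 10, 2 and 4, had cores of 80.5% to 81.8% and were also 1 peak in each library. They were 1000 to 1398 bp wide, and their groups overlapped.

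The largest ratio in favour of MLX-DN was found on chromosome 5 from 150190291 to 150192162 (1872 bp). Peaks covered 1770, 1806 and 1647 bp in MLX-DN against 262, 285 and 253 bp in MLX-WT, a ratio of 6.53. In all 3 MLX-WT libraries a single short peak near the MLX-DN summit was listed, and the strongest summits of the 6 libraries lay within 112 bp. Fold was 6.22, 7.76 and 3.98 in MLX-DN against 3.07, 4.63 and 3.5 in MLX-WT. Chromosome 5 is among those with higher control background in MLX-DN, by a ratio of 1.23.

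Next came ratios of 4.60 and 4.14 on chromosome 8, in the regions from 97855248 to 97857023 and from 90796173 to 90798513. They were followed by 4.04 on chromosome 13, between 63342764 and 63344639, and by 3.99 for the wide region of chromosome 3 named above. Of these 5, the region on chromosome 13 lies on a chromosome where the control background of the groups overlapped. It was covered over 752, 1553 and 1430 bp in MLX-DN against 255, 284 and 385 bp in MLX-WT. The first region on chromosome 8 had fold values of 2.51 to 2.98 in MLX-DN and 2.16 to 3.2 in MLX-WT, which overlap.

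All 5 regions with the reverse order are given here. On chromosome 7 from 152391732 to 152393251 (1520 bp) peaks covered 345, 337 and 1060 bp in MLX-DN against 1298, 1187 and 1398 bp in MLX-WT, a ratio of MLX-WT to MLX-DN of 2.23. MLX-DN replicates 1 and 2 listed separate parts of it, so no core existed, and MLX-DN replicate 3 was close to the MLX-WT values. Fold was 3.38, 2.16 and 4.31 in MLX-DN against 4.86, 8.07 and 5.96 in MLX-WT.

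The second was on chromosome 2 from 165979940 to 165981063, with 337, 795 and 769 bp in MLX-DN against 1029, 969 and 949 bp in MLX-WT. The third, on chromosome 8 from 37311006 to 37312306, was covered over 703, 831 and 651 bp in MLX-DN against 1053, 1075 and 1065 bp in MLX-WT. Their ratios were 1.55 and 1.46. Chromosome 8 has the highest control background of MLX-DN relative to MLX-WT, at 1.26, and of its 82 broad regions this was the only one with MLX-WT higher in every library, beside 37 with MLX-DN higher. The remaining pair, on chromosome 10 from 80598569 to 80599909 and chromosome 19 from 5609461 to 5611069, had ratios of 1.22 and 1.17, and the nearest libraries of the 2 groups differed by 29 and 7 bp.

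Broad regions were found on all 19 autosomes and on X. Chromosomes 2, 11 and 15 held the most, with 142, 139 and 131, and chromosome X held 3. Broad regions made up 41.2% of the shared regions on chromosome 10 (33.6% to 49.1%) and 56.5% on chromosome 3 (47.0% to 65.7%), the lowest and highest autosomes, and the intervals overlap. Chromosome 15 held 8.72% of the broad regions, 8.14% of all shared regions and 5.84% of all union regions. It also had the highest background of MLX-WT relative to the genome-wide level, at 1.45. On every autosome the mean of the library medians of covered length was higher in MLX-DN. The ratio ran from 1.24 on chromosome 10 to 1.58 on chromosome 5. The groups overlapped on chromosomes 2, 6, 7, 10, 13, 14, 15, 16, 18 and 19 and were apart on the other autosomes. On chromosome X, with 3 regions, the ratio of library medians was 0.975, although 2 of the 3 were covered more in every MLX-DN library and none in every MLX-WT library.

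Neighbouring broad regions were usually far apart. The distance from the edge of one to the next had a median of 441976 bp, with quartiles of 97471.5 and 1674390 bp and a minimum of 15 bp. Stitching within 12.5 kb, a distance commonly used to join enhancer elements, put 240 of the 1502 regions (16.0%, 14.2% to 17.9%) into 105 clusters. Of these clusters 83 were pairs and 22 held 3 to 5 regions. The share was 10.6% at 5000 bp and 30.9% at 50000 bp.

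For comparison, 9.91% of the 1605 compact regions (8.49% to 11.5%) were stitched to another compact one at 12.5 kb. The sets are of similar size, and the intervals do not overlap at this distance. At 5000 bp they do, with 10.6% of broad (9.07% to 12.3%) and 7.98% of compact regions (6.70% to 9.41%). At 50000 bp the shares were 30.9% (28.6% to 33.3%) and 21.1% (19.1% to 23.2%). Neighbours are not independent, and these intervals cover counting error only. Among all 3107 shared regions, a set with more members and shorter distances, the share at 12.5 kb was 19.7%. Without MLX-WT replicate 1, which admits 2043 broad regions, their share at 12.5 kb was 21.3%. The closest union region of any listing lay 2770 bp away at the median for broad regions and 597 bp away for compact ones. The shares with such a neighbour were less far apart than these medians. Within 1 kb they were 45.2% of broad and 53.4% of compact regions, and within 5000 bp 56.2% and 59.1%. Fusing of overlapping or adjoining peaks also enters this distance, and its part was not tested.

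The cluster with the most members held 5 regions on chromosome 2 from 167585670 to 167616096, a span of 30427 bp. Its regions were 1025 to 2821 bp wide and were covered over 8062, 10280 and 7451 bp in all in MLX-DN against 5534, 8054 and 7057 bp in MLX-WT. MLX-WT replicate 2 lay within the MLX-DN range. In none of its 5 regions were the groups apart.

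Clusters of 4 were found on chromosomes 2, 8, 12, 17, 15 and 16. The widest by members, on chromosome 2 from 30562402 to 30576737, was covered over 6754, 8642 and 5577 bp in MLX-DN against 1974, 7133 and 4627 bp in MLX-WT, again with overlap. It contained a fold of 14.2 in MLX-DN replicate 2. The next, on chromosome 8 from 90796173 to 90813631, was covered over 6969, 8719 and 7618 bp in MLX-DN against 1803, 4007 and 2810 bp in MLX-WT. Here every one of the 4 regions was higher in every MLX-DN library, with ratios of 4.14, 2.41, 2.42 and 2.50. In the second cluster of chromosome 2 this held for 1 of 4 regions. Chromosome 8 is the one with the largest background ratio, as given above.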

How the data were processed

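H4ac ChIP-seq of C2C12 myoblasts gave 6 peak lists, 3 of MLX-DN and 3 of MLX-WT, grouped by sample title. The 6 input libraries were not analysed here. Per the submitters' processing notes the build was mm9 and the tools were MACS2 2.0.9, BWA 0.5.9-r26, SAMtools, Picard 1.65, CASAVA and R 2.14.0, with roles and settings not given in the sources used here. Each list holds 1 library, without pooling. The columns deposited by the authors are a fold (ratio of ChIP to background), p-value and q-value as −log10, and a score, which is 10 times the −log10 q cut to a whole number. The smallest −log10 q was 1.31 to 1.35, while the smallest −log10 p was higher in every MLX-WT list, as given above.

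Peaks were merged, covered, stitched and counted with Python 3 scripts (numpy, pandas, scipy), tested on simulated data. Reads and background were recovered from fold and p, which matched whole reads in 100.0% of peaks within 0.001 of the −log10 p. Window depth was 3.299 to 3.90 reads, total reads are unknown, and exact 95% intervals cover counting error only. No test was run: members were chosen by these values, and 3 libraries against 3 cannot go below an exact p of 0.10. Members, lists and alternatives were chosen with earlier results of these data known. Named regions are the 10 widest, the 5 of highest lowest percentile, the 5 of largest core share, the 5 of largest ratio in each direction without overlap, the 5 most split, the 3 clusters with most members (ties by total width) and the 3 on either side of 1000 bp. Width limits set on one group alone were added after seeing the data. Sequence and annotation steps were not run for want of an mm9 genome.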

Additional observations from a re-analysis of the deposited data

How the results depend on the processing

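Beyond what each setting does by construction, the causes of these changes were not tested. In place of 1502, 562 regions met 1500 bp, 181 met 2000 bp, 993 remained with a −log10 q of at least 5, 780 with equal lists, 320 where each library had to cover 50% of the region and 895 with the limit set on MLX-WT alone, and 1153 to 2043 when a library was left out. The log2 difference in median cover stayed positive, at 0.52 as reported, 0.20 with 50% cover and 0.39 to 0.72 with a library left out. The share with every MLX-DN library higher was 48.6% at 2000 bp, beside 22.9% of all shared regions of any width. It was 31.1% to 57.1% with a library left out, where the share over all shared regions was not computed. The share with every MLX-WT library higher was 0.0% at 2000 bp, 0.201% at a −log10 q of 5, 0.938% with 50% cover, 0.559% and 0.216% with the limit set on MLX-WT or MLX-DN alone, and 0.417% to 2.01% with a library left out. The difference in peaks per region, 0.0304, was -0.0786 with equal lists, 0.331 with regions within 500 bp joined and -0.0708 with 50% cover. The difference in fold stayed between 0.22 and 0.887 in all its alternatives.

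A core was present in 88.1% and 85.6% at 1500 and 2000 bp, 87.3% with joined regions, 100% with 50% cover and 92.0% to 93.8% with a library left out. The share in clusters was 11.6% at 2000 bp, 10.3% at a −log10 q of 5, 7.05% with equal lists, 12.8% with joined regions, 2.81% with 50% cover, 10.6% and 30.9% at 5000 and 50000 bp, 10.9% with the limit on MLX-WT, and 14.1% to 21.3% with a library left out. No paired analysis was possible because no test was run and the labels do not tie the replicate numbers to a shared batch, day or culture. Weak flanks near the smallest number of reads a peak can have, 13 to 16, limit what a list shows of them.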

Other observations

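The rule left out 770 regions of at least 1000 bp that 5 of the 6 libraries listed. MLX-WT replicate 1, the shortest list, was the missing one in 546 of them (70.9%), MLX-WT replicate 3 in 140 and MLX-WT replicate 2 in 33. The missing library was MLX-DN replicate 1 in 28, MLX-DN replicate 3 in 20 and MLX-DN replicate 2 in 3. A further 546, 452, 118 and 17 regions of this width were listed by 4, 3, 2 and 1 of the libraries.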
